A study of Caenorhabditis elegans with 2 samples.

Results

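The regions described here are the places on the X chromosome of Caenorhabditis elegans where the tagged DNA-binding protein LIN-54 gave a strong ChIP-seq signal away from tRNA genes. They were chosen by measured values, namely a signal of 80 or more in the pooled relaxed region list, together with a summit more than 200 bp from every annotated tRNA gene. The rule gave 244 X regions of the 30000 regions in the pooled list. Each listed summit was counted as its own region, and some entries shared or overlapped coordinates. For example, chrX:16930786-16931937 was listed with signals of 214.7 and 132.3. The same rule gave 3928 autosomal regions, with 900 on I, 715 on II, 897 on III, 759 on IV and 657 on V. The signal is the peak caller's value for a region. The sources used here do not say how it was calculated. Of the pooled regions outside tRNA genes, 10.6% passed the signal minimum on X and 14.4% on the autosomes. Those shares follow from the rule and are given as a description.

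Binding was measured in whole young adult worms, 65 hours old and labelled as mixed sex, grown from larvae that had been starved at L1 after bleaching. All animals were of strain OP743, which carries the allele unc-119(tm4063) and the transgene wgIs743. That transgene is a lin-54 fosmid fused to TY1, EGFP and 3xFLAG, with unc-119(+) as rescue, so the tagged protein was made beside the animals' own lin-54 locus. Chromatin was sheared by sonication and precipitated with an anti-GFP antibody. The 2 biological replicates form 1 group, and no untagged or mutant group was analysed here, so what the tag or antibody adds at a site was not tested. The animals were whole worms, so the cell type in which a region was bound cannot be told apart.

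Within the DREAM complex, LIN-54 reads the CHR element (for cell cycle genes homology region) in DNA, while the E2F protein EFL-1 and its partner DPL-1 bind E2F sites. DREAM is known for repressing cell cycle and germline genes in somatic cells. The worm X chromosome is known for its silence in much of the germline and for the dosage compensation complex, which loads onto X in hermaphrodites and lowers its expression. That complex is recruited at a set of X sites that carry a short sequence known as the MEX motif, which contains the bases GCGCAGGG.

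The strongest X regions are shown first because many of them share a sequence that was almost absent from the autosomal regions. The region with the highest X signal lay in intergenic sequence near W02H3.3 and held 2 copies of GCGCAGGG, both on the minus strand. The bases around the core that these copies have in common give an 11 base stretch, TCGCGCAGGGA, at chrX:11094225-11094235 and chrX:11094124-11094134, in WBcel235 (ce11) coordinates. Each line below gives the summit base and 50 bp on either side of it from the reference genome, with capitals for every match of the stretch with 0 or 1 mismatch on either strand. A match on the minus strand therefore reads TCCCTGCGCGA.
W02H3.3 region, chrX:11094163-11094263, + strand: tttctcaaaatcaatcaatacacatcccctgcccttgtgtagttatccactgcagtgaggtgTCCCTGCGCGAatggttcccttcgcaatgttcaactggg
cest-16 region, chrX:6296516-6296616, + strand: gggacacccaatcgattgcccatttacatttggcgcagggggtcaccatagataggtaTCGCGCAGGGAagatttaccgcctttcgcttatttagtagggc
Y41G9A.17 region, chrX:2997052-2997152, + strand: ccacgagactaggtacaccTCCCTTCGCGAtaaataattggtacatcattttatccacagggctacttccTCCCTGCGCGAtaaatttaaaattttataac
nspc-17 region, chrX:14525879-14525979, + strand: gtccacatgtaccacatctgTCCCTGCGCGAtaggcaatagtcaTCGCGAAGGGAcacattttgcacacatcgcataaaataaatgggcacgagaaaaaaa
F20B6.9 region, chrX:4209229-4209329, + strand: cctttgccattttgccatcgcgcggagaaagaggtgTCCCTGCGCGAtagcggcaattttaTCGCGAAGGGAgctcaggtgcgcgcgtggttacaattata
gtr-1 region, chrX:806628-806728, + strand: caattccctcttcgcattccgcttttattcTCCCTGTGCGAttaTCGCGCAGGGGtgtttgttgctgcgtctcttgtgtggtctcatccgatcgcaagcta
xol-1 region, chrX:8036350-8036450, + strand: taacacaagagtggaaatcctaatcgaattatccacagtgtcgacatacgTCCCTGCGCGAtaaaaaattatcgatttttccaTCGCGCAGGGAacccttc
C41A3.2 region, chrX:5429501-5429601, + strand: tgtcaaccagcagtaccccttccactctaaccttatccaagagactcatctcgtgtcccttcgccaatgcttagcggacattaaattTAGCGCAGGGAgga
ins-39 region, chrX:1345007-1345107, + strand: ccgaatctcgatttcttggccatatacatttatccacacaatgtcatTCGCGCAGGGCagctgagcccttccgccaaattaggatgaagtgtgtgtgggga

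Of the 20 X regions with the highest signal, 13 held the stretch with 0 or 1 mismatch within 100 bp of the summit, and 7 of these held it with no mismatch. Over all X regions the count was 16 of 244 (6.56%), against 6 of 3928 autosomal regions (0.153%). An exact copy lay near 8 X summits and near 0 autosomal summits. Of these 8 X regions, 7 were among the 15 strongest and the other stood at rank 46. Among X regions ranked 21 to 50 there was 1 with the stretch, and among the 194 ranked below that there were 2. The stretch was read from the strongest X region itself and was chosen after its values were seen, so these counts are a description with no test.

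**Figure D1:**
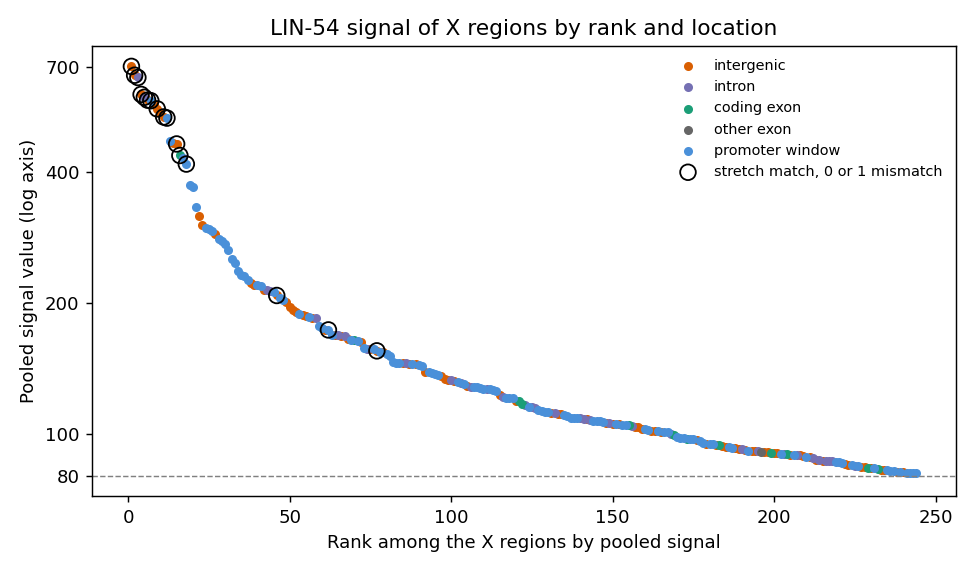
Pooled LIN-54 signal (log axis) of the 244 X regions against their rank, coloured by the location of the summit, with rings around regions that hold the 11 base stretch with 0 or 1 mismatch within 100 bp of the summit. The dashed line is the signal minimum of 80, and 13 of the 16 ringed regions are among the 20 strongest.

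The W02H3.3 region (chrX:11093987-11094379) had a pooled signal of 700.4, with 376 in replicate 1 and 321 in replicate 2, and stood at rank 207 among all pooled regions. Its summit lay 3973 bp downstream of the 5′ end of W02H3.3, the nearest protein-coding gene, and 1460 bp from the nearest tRNA gene. The region nearest T27A8.7 (chrX:16056385-16056779) had a signal of 668, with 351 in replicate 1 and 302 in replicate 2. Its stretch, centred 55 bp from the summit, differed by the substitution G10T, where positions count from 1 at the 5′ end of the stretch. Both regions were intergenic.

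An exact stretch also lay in an intron of mom-1, a gene needed for Wnt secretion, with cest-16, of the carboxylesterase family, as the gene with the nearest 5′ end. That region (chrX:6296358-6296770) had a signal of 660.4, with 383 in replicate 1 and 271 in replicate 2. An intron of Y41G9A.17 held another exact copy, and that region (chrX:2996937-2997306) had a signal of 595, with 326 in replicate 1 and 251 in replicate 2. It also held a second match with the substitution C6A. The F20B6.9 region (chrX:4209139-4209434, signal 559) lay in intergenic sequence and held an exact copy centred 9 bp from its summit. The exact copies are thus found in introns and between genes alike.

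The region near xol-1, the switch gene of sex determination and dosage compensation, was intergenic, 4913 bp upstream of its 5′ end (chrX:8036267-8036679). Its pooled signal was 464, with 266 in replicate 1 and 201 in replicate 2, and it held 2 exact copies of the stretch in opposite orientation. A tRNA gene lay 285 bp from its summit, just past the distance set by the rule. The region near gtr-1 (chrX:806561-806835, signal 586), a gene for a G protein-coupled receptor, held 3 matches with 1 mismatch each. Over whole X regions, 11 held 1 match of up to 1 mismatch, 6 held 2 and 1 held 3, while the autosomal regions that held a match, 8 in all, had 1 each.

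Other X regions with the stretch lay in promoter windows, which reached here from 1000 bp before to 300 bp after the start of a protein-coding transcript. The nspc-17 region (chrX:14525720-14526127, signal 584), 748 bp upstream of a member of a nematode-specific peptide family, held an exact copy. The fbxb-58 region (chrX:1627008-1627315, signal 533), 984 bp upstream of an F-box gene, held a copy with C6A. The ins-39 region (chrX:1344906-1345180, signal 417), 636 bp upstream of an insulin-like peptide gene, held a copy with A11C. In coding sequence, the region with C41A3.2 as nearest 5′ end (chrX:5429438-5429670, signal 437) lay in an exon of pks-1, a polyketide synthase gene, and held a copy with C2A. By location, the 16 regions with the stretch comprised 9 intergenic, 4 promoter, 2 intronic and 1 coding region.

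The remaining named regions of this kind were F55G7.5 (chrX:11937407-11937659, signal 604), with a copy carrying C6G 73 bp from the summit, and F22H10.2 (chrX:16681991-16682250, signal 536), with an exact copy 54 bp away. A weaker exact copy lay at a region near col-185, a collagen gene, with a signal of 208 (109 in replicate 1 and 91.1 in replicate 2). The only X regions further down the ranking with 0 or 1 mismatch within 100 bp of the summit were at R04E5.9 (signal 173, T1A) and at a further F20B6.9 region (signal 155, C2T). Regions nearest tps-1 (signal 136) and F17H10.1 (signal 90.4) held a match of up to 1 mismatch further from the summit. These last regions show that a match to the stretch did not go with a high signal in every case.

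Among the 20 strongest X regions, 6 held no match of up to 2 mismatches, and hsp-3, which encodes an endoplasmic reticulum Hsp70 chaperone, had its best match with T1G and G9A. The 2 strongest without a match are shown because they hold 2 short words, each of which recurs among the other strong X regions. Capitals mark TATCCAC and GCGAAGGG on either strand, the second being the core bases with C6A, so it can fall inside a stretch match.
K02D3.1 region, chrX:13700828-13700928, + strand: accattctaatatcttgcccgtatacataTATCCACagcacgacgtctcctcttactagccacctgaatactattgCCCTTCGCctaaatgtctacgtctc
ZK899.6 region, chrX:9465829-9465929, + strand: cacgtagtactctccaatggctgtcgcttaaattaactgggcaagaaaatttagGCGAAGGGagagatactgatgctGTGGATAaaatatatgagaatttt

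TATCCAC lay within 50 bp of the summit in 6 of the 20 strongest X regions, in 2 of the 224 other X regions, and in 12 of 3928 autosomal regions (0.305%). GCGAAGGG lay in 8 of the 20 strongest, in 3 of the other X regions, and in 4 autosomal regions (0.102%). Both words were picked after the sequences above were seen, so the counts carry no test. The K02D3.1 region (chrX:13700701-13701035) had a signal of 575, with 345 in replicate 1 and 231 in replicate 2. The ZK899.6 region (chrX:9465725-9466014) had a signal of 546, with 293 in replicate 1 and 248 in replicate 2. Each lay in intergenic sequence and held both words. Among the 20 strongest, the only others with both words were the W02H3.3 and Y41G9A.17 regions. In the Y41G9A.17, nspc-17, F20B6.9 and fbxb-58 regions, GCGAAGGG fell inside a stretch match with C6A.

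The others of the 20 without a stretch match of 0 or 1 mismatch held neither of these words. The pkhm-2 region (chrX:15181540-15181742, signal 430.5), shown as an example with no capitals, lay 161 bp upstream of its gene.
pkhm-2 region, chrX:15181576-15181676, + strand: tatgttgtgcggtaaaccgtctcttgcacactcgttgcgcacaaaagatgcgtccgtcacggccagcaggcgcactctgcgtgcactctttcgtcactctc
The serp-1.1 region (chrX:15841161-15841395, signal 473) lay 297 bp upstream of its gene, and the puf-9 region (chrX:5841213-5841415, signal 369), at a gene for a Pumilio-family RNA-binding protein, lay 310 bp upstream. The hsp-3 region (chrX:6092075-6092274, signal 373) lay 51 bp upstream. These promoter regions had GC contents between 51.5% (puf-9) and 65.4% (hsp-3) within 50 bp of the summit. F19H6.5 (chrX:12362950-12363374, signal 467) was intergenic and held neither the stretch nor either word.

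The exact core was 1 of 13 shares tested between X and autosomes, with motifs counted when centred within 50 bp of a summit, on either strand. GCGCAGGG lay in 14 of 244 X regions (5.74%, 95% Wilson interval 3.45% to 9.40%) and in 1 of 3928 autosomal regions (0.0255%, interval 0.00449% to 0.144%). The two-sided Fisher's exact test gave an adjusted p of 7.08e-16, with Benjamini-Hochberg adjustment over the 13 shares compared. In single autosomes the share was between 0% and 0.111%. The difference sat in the strong regions: at a signal of 160 or more the core lay in 13 of 72 X regions (18.1%) and 1 of 1708 autosomal regions (0.0585%). Between 80 and 160 it lay in 1 of 172 (0.581%) and 0 of 2220, with an adjusted p of 0.156, and the adjusted p ran from 4.52e-17 to 0.156 over all alternatives. Regions of 1 pooled list are not replicates, so these p-values cover counting error over regions alone.

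The core was not itself limited to X. The X sequence held 81 copies (4.57 per Mb) and the autosomes 233 (2.82 per Mb), of which 16 and 1 lay within 50 bp of a chosen summit. Of the 13 exact copies of the 11 base stretch on X, 10 lay within 100 bp of the summit of a chosen X region and 3 had no pooled region summit that close, while both exact copies on autosomes had none either. Allowing 1 mismatch, 24 of 68 sites on X (35.3%) and 6 of 201 on autosomes (2.99%) were at chosen regions, and 40 on X and 185 on autosomes had no pooled region summit within 100 bp. Most near-matches on X and on autosomes thus lay away from any listed summit, although a site can lie inside a region and still be further from its summit. In regions below the signal minimum, the core lay in 4 of 2059 on X and in 13 of 23394 on autosomes.

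The 6 autosomal regions with a stretch of 1 mismatch all lay in promoter windows, at sco-1, rbc-2, cyk-3, fcd-2, F25B4.4 and letm-1. Their signals ran from 114 at fcd-2 to 402 at F25B4.4. The 16 X regions with the stretch had signals from 155 to 700.4. The ranges overlap, and the signal entered the choice of regions, so no test is given.

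The CHR element was sparser at the X regions. The CHR element, searched as TTTGAA and TTCGAA, lay in 46 of 244 X regions (18.9%, interval 14.4% to 24.2%) and in 1334 of 3928 autosomal regions (34.0%, interval 32.5% to 35.5%), with an adjusted p of 1.35e-06 by Fisher's exact test. Single autosomes had shares between 30.1% and 36.2%, all above that of X. In promoter windows alone the shares were 16.1% on X and 37.8% on autosomes. Windows of the same length, centred 200 bp upstream of protein-coding genes, held a CHR element in 30.6% of cases on X and 36.2% on autosomes, and the X regions were below their own chromosome's promoters, a contrast that was not tested. Among regions with a signal between 80 and 160 the shares were 22.7% and 28.7%, and the adjusted p was 0.177 (range over alternatives 8.27e-10 to 0.177), so the difference passed the test in the full set but not in its weaker part.

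CHR elements on X also showed no excess at the summit. There were 213 matches per 1000 X regions within 50 bp of summits and 406 per 1000 at 150 to 200 bp, whereas autosomal regions had 416 within 50 bp and 364 further out. The element is rich in A and T, and base composition moved with this result: the median GC content within 50 bp of summits was 49.5% on X and 43.6% on autosomes. In X promoter regions it was 52.5%. The part of base composition in the difference was not tested.

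**Figure D2:**
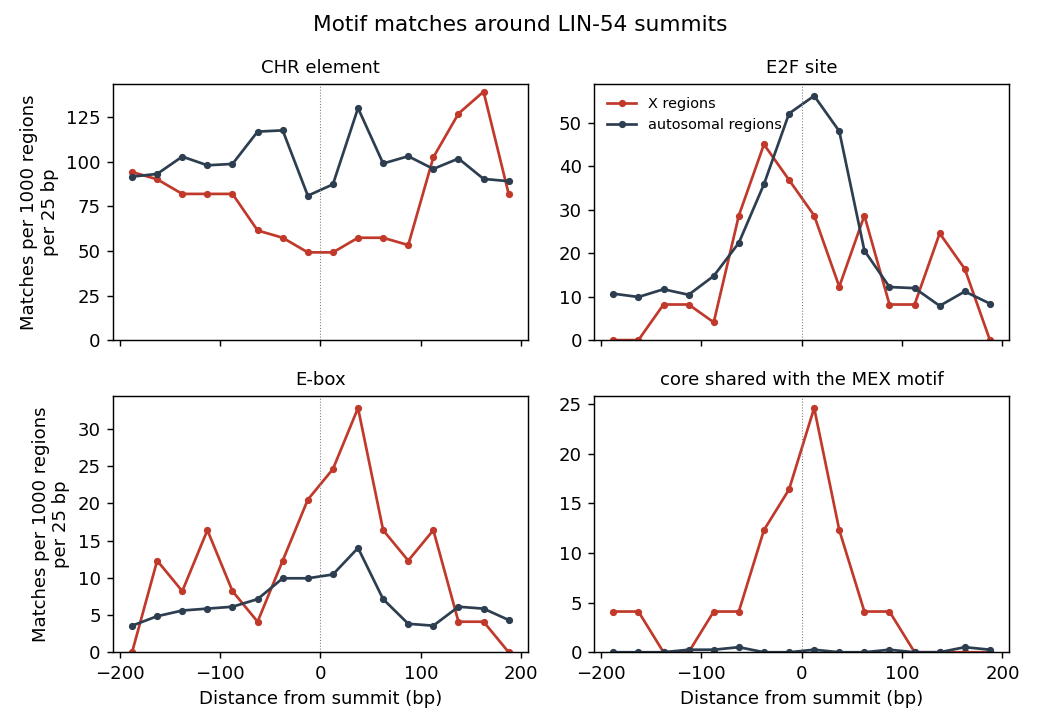
Matches of 4 motifs per 1000 regions in bins of 25 bp, by distance from the summit in bp, for X regions (red) and autosomal regions (dark blue). The CHR element dips in the bins beside the summit, to 49.2 per 1000 in each on X and to 80.96 and 87.3 on autosomes. In the next bins out it has 57.4 in each on X, and 117.6 and 130.1 on autosomes. On X the E2F site, the E-box and the core shared with the MEX motif are highest within 50 bp of the summit.

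E2F sites, searched as TTCCCGC or TTCGCGC, and as TTGCCGC or as TTGGCGC, lay in 28 X regions (11.5%, interval 8.06% to 16.1%) and in 640 autosomal regions (16.3%, interval 15.2% to 17.5%). This difference did not pass the test, with an adjusted p of 0.0688 by Fisher's exact test. Unlike the CHR element, E2F sites were denser at X summits than around them, at 123 per 1000 within 50 bp and 16.4 per 1000 at 150 to 200 bp, and autosomal regions had 194 and 39.7. X promoter windows of the same length held an E2F site in 3.55% of cases. The site TTCGCGC can overlap the stretch, which happened for 2 of 30 matches on X and 12 of 760 on autosomes, counting stretches of up to 2 mismatches. Without regions that held the stretch with 0 or 1 mismatch, an alternative chosen after seeing the data, the shares were 10.5% and 16.3% and the adjusted p was 0.0287. Over all alternatives it ran from 0.00205 to 0.912.

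A CHR element and an E2F site together lay in 6 X regions (2.46%) and in 354 autosomal regions (9.01%). The 2 strongest such X regions are shown, with capitals for the CHR and E2F matches, since this pairing is the arrangement known for DREAM targets.
C04E7.3 region, chrX:344001-344101, + strand: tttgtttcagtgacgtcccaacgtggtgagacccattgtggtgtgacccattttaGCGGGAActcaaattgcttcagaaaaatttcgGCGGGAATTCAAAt
ekl-5 region, chrX:13918305-13918405, + strand: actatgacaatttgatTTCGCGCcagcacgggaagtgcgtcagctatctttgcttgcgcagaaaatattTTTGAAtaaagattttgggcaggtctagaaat
The region nearest C04E7.3 (chrX:343883-344218) lay in an intron of that gene and had a signal of 168, with 83.4 in replicate 1 and 82.7 in replicate 2. The region nearest ekl-5 (chrX:13918187-13918522) was intergenic and had a signal of 165, with 79.9 in replicate 1 and 89.9 in replicate 2. The next in signal were at F46H5.3 (126), epn-1 (114.6), which encodes the endocytic adaptor epsin, and unc-84 (106), which encodes a SUN-domain protein of the nuclear envelope. The median signal of the 6 was 120, and that of X regions with neither motif was 122. On autosomes regions with both motifs had a median of 285 and those with neither 127. The signal chose the regions and only 6 X regions held both motifs, so these medians are a description with no test.

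The E-box CACGTG, a site of basic helix-loop-helix proteins, lay in 21 X regions (8.61%, interval 5.70% to 12.8%) and in 165 autosomal regions (4.20%, interval 3.62% to 4.87%), with an adjusted p of 0.00726 by Fisher's exact test. This call did not hold in single replicates. With replicate 1 left out the shares were 4.24% and 3.97% (adjusted p 0.935), and with replicate 2 left out they were 6.69% and 4.21% (adjusted p 0.0793). Within promoter windows they were 5.36% and 3.49%, with an adjusted p of 0.473. Over all alternatives it ran from 0.00199 to 0.935. Of the 34 intronic X regions, 6 held an E-box (17.6%), against 20 of 333 intronic autosomal regions (6.01%), a contrast that was not tested. Those 6 include a pair with summits 1180 bp apart in intronic sequence of ZK470.2.

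The GATA site TGATAA lay in 16 X regions (6.56%) and 268 autosomal regions (6.82%), and GAGAGAGA in 8 (3.28%) and 136 (3.46%). Neither passed Fisher's exact test, and the adjusted p was 1 for each. The difference for TGATAA was -0.27 percentage points and that for GAGAGAGA was -0.18. Shorter repeats, chosen after values were seen, stood apart in X promoter regions. GAGAGA lay in 30.4% of the 112 X promoter regions and 16.4% of the 2607 autosomal ones, CCTCTC in 30.4% and 8.59%, and ACACAC in 25.9% and 8.59%. The same words lay in 13.01%, 8.56% and 7.88% of weaker X promoter regions, those below a signal of 80. Weaker autosomal promoter regions held them in 9.63%, 4.475% and 4.62% of cases. They were thus more frequent in the chosen promoter regions on X and on autosomes alike. Outside promoter windows, GAGAGA lay in 12.1% of X regions and 17.3% of autosomal ones, CCTCTC in 7.58% and 7.80%, and ACACAC in 12.9% and 10.1%. Words were counted on either strand, and a GAGAGA match can overlap a CCTCTC match on the other strand. The median GC content of X promoter regions, given above as 52.5%, was 44.6% in autosomal promoter regions, and its part in these shares was not tested.

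**Figure D3:**
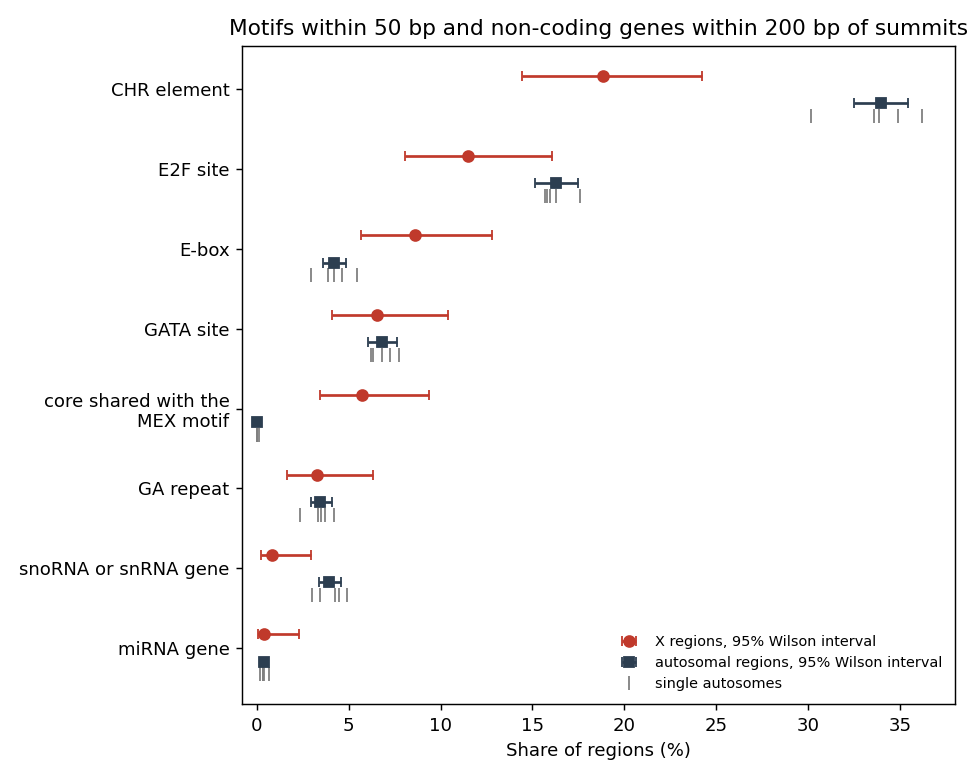
Shares (%) of X regions (red circles) and autosomal regions (dark squares) with a motif within 50 bp of the summit or a non-coding gene within 200 bp, with 95% Wilson intervals; grey ticks are single autosomes. CHR elements are in 18.9% of X regions and 34.0% of autosomal regions, and the core shared with the MEX motif is in 5.74% and 0.0255%.

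In location, X regions lay less often at promoters and more often between genes. Promoter windows held 112 X summits (45.9%, interval 39.8% to 52.2%) and 2607 autosomal summits (66.4%, interval 64.9% to 67.8%), with an adjusted p of 8.83e-10 by Fisher's exact test. Every autosome had a higher share than X, between 64.7% and 68%. Promoter windows covered 23.5% of X and between 26.03% and 32.3% of single autosomes, and their part in the difference was not tested. Below the signal minimum the promoter shares were 28.4% on X and 33.2% on autosomes, a smaller gap of -4.88 percentage points, against -20.5 among the chosen regions.

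Intergenic sequence, meaning outside promoter windows and protein-coding genes, held 85 X summits (34.8%, interval 29.1% to 41.01%) and 666 autosomal summits (17%, interval 15.8% to 18.2%), with an adjusted p of 3.62e-10. Introns held 34 X summits (13.9%, interval 10.2% to 18.8%) and 333 autosomal ones (8.48%, interval 7.65% to 9.39%), with an adjusted p of 0.0128, both by Fisher's exact test. The intron call was lost at a signal minimum of 160, where the shares were 9.72% and 6.79% (adjusted p 0.44), and with a promoter window of 500 bp upstream and 100 bp downstream (adjusted p 0.189). Over all alternatives its adjusted p ran from 1.25e-07 to 0.44. Coding exons held 12 X summits (4.92%) and 188 autosomal ones (4.79%), a difference that did not pass the test (adjusted p 1), and 1 further X summit lay in another exon, at puf-9. Outside promoter windows, the median distance to the nearest 5′ end was 2294 bp on X and between 1572 and 1798 bp on single autosomes. Below the signal minimum the intergenic shares were 20.98% on X and 12.9% on autosomes. That is a gap of 8.055 percentage points, against 17.9 among the chosen regions. X had 154 protein-coding genes per Mb and single autosomes between 187.6 and 238.7, and the part of gene density in the difference was not tested.

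**Figure D4:**
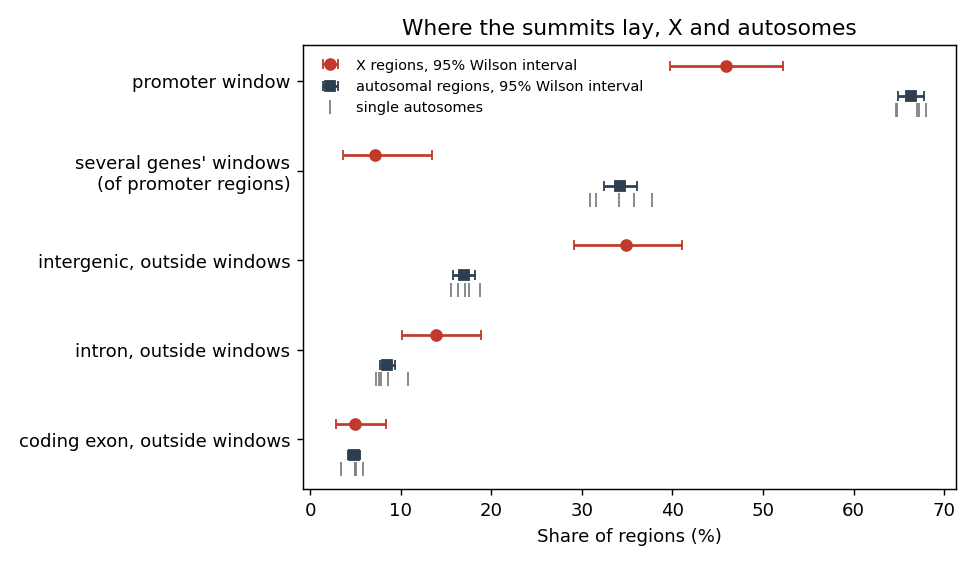
Shares (%) of summits by location for X regions (red circles) and autosomal regions (dark squares), with 95% Wilson intervals; grey ticks are single autosomes. The X share is lower than that of every autosome for promoter windows (45.9%) and for windows of several genes (7.14%), and higher for intergenic sequence (34.8%).

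Location and strength went together at the top of the X list. Of the 15 strongest X regions, 10 were intergenic, 2 intronic and 3 in promoter windows, while 19 of the 30 ranked 21 to 50 lay in promoter windows. The median signal of X promoter regions was 126 (range 80.98 to 584) and that of X intergenic regions 119 (range 81.5 to 700.4). On autosomes promoter regions had a median of 164 (highest 7882) and intergenic regions 124. Over all locations the medians were 117 on X, with a highest value of 700.4, and 140.5 on autosomes, with a highest value of 7882. The signal chose the regions, so these values are a description.

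The median position of X promoter summits relative to the 5′ end was -244.5 bp, negative being upstream, against medians between -171 and -153 bp on single autosomes. Few X promoter regions were shared by several genes: 8 of 112 (7.14%, interval 3.66% to 13.5%) lay in windows of more than 1 gene, against 892 of 2607 on autosomes (34.2%, interval 32.4% to 36.1%), with an adjusted p of 3.08e-10 by Fisher's exact test. Of the bases in promoter windows, 4.70% on X and between 11.01% and 13.1% on single autosomes belonged to several genes. The strongest of the 8, with a signal of 279.9, lay in the windows of trap-2, a translocon-associated protein gene, and ile-2. A region at dhs-25, D1005.10 and D1005.4 (signal 97.4) lay in 3 windows, and these examples were chosen after their values were seen.

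Repeat-masked sequence was rare at X summits. More than 50% of the bases within 50 bp of the summit were soft-masked in the reference genome for 3.69% of X regions and for between 15.8% and 20.07% of regions on single autosomes. Small nucleolar or small nuclear RNA genes lay within 200 bp of 2 X summits (0.82%, interval 0.225% to 2.94%) and 155 autosomal summits (3.95%, interval 3.38% to 4.60%), with an adjusted p of 0.0133 by Fisher's exact test. The genes near the X summits were C53B7.8 (32 bp, signal 222.5) and D2021.6 (65 bp, signal 151). Below the signal minimum, such genes lay near 3 of 2059 X summits (0.146%) and 116 of 23394 autosomal summits (0.496%). The part of the placement of these genes in the difference was not tested. The call was lost at a signal minimum of 160 (adjusted p 0.156), and the adjusted p ran from 0.00113 to 0.588 over all alternatives. A single miRNA gene, cel-mir-1829b, lay 83 bp from an X summit (signal 88.1), against 15 autosomal summits near miRNA genes (0.382%), with an adjusted p of 0.805.

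In all, 116 of 2731 protein-coding genes on X (4.25%) had a chosen region in the promoter window, against 3156 of 17242 on autosomes (18.3%). X held 13.8 chosen regions per Mb and single autosomes between 31.4 and 65.1, and per 100 protein-coding genes X held 8.93 and single autosomes between 13.2 and 33.98. Along X the regions were spread over its whole length, with between 11 and 36 in each of 10 equal parts of its length. The 16 regions with the stretch lay in 9 of these parts, with a median gap of 1011327 bp between neighbours and a smallest gap of 573 bp.

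Classes of genes that DREAM is known for have few members on X, and genes of the lists were counted by chosen regions in their promoter windows. Of the mitosis and cell cycle list, 1 gene is on X, the cyclin-dependent kinase gene cdk-4, and it had no chosen region, its highest promoter signal being 57.9. On autosomes 66 of 90 such genes (73.3%) had one. No gene of the DREAM complex, of DNA replication and repair, or of the proteasome on these lists lies on X. Of the germline list, 0 of 4 X genes had a chosen region, namely meg-1, meg-2, meg-3 and meg-4, which encode P granule proteins, and only meg-4 had any pooled region there, at a signal of 27.1. On autosomes 53 of 89 germline genes (59.6%) had one. The small RNA genes alg-1, an Argonaute gene with a highest promoter signal of 23.9, and nrde-3, with no pooled region, likewise had no chosen region in the promoter window. Outside that window, a chosen region with a signal of 84.9 lay 3419 bp upstream of alg-1. Among all X genes only 4.25% had a chosen region in the promoter window. Counts of 0 in X lists this short therefore do not set these genes apart from other X genes.

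Housekeeping classes on these lists have few X genes, and some of those had promoter regions. Of 2 ribosomal protein genes on X, rpl-11.2 had a region with a signal of 219 (102 in replicate 1 and 118 in replicate 2), 404 bp upstream, and rpl-25.1 had none. On autosomes 70 of 76 (92.1%) had one. Of 3 translation genes on X, eef-1A.2, which encodes an elongation factor, had a signal of 295 (161 in replicate 1 and 139.5 in replicate 2), while the eIF4E genes ife-2 and ife-4 had none. Of 5 respiratory chain and ATP synthase genes, ucr-2.2, of complex III, had a signal of 247 (123 in replicate 1 and 127 in replicate 2). The other was sdha-1, of succinate dehydrogenase, with a signal of 151 (85.3 in replicate 1 and 68.1 in replicate 2). The rest of that list on X, asb-2, asg-2 and ucr-2.1, had no pooled region in the promoter window.

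Of 6 X genes in the list of dosage compensation and the X signal, 2 had a chosen region. They were sdc-1, a zinc finger protein that acts in dosage compensation (signal 130.1, with 67.5 in replicate 1 and 58.9 in replicate 2), and ceh-39, a homeobox gene that acts as an X signal element (signal 120.5, with 58.1 in replicate 1 and 64.1 in replicate 2). On autosomes it was 6 of 11. In the list of synMuv and chromatin regulators, 1 of 6 X genes had a chosen region: lin-15B, a synMuv B gene, with a signal of 139 (70.8 in replicate 1 and 64.03 in replicate 2), 940 bp upstream. On autosomes it was 17 of 30. Both lists thus had members with and without a region on X.

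The other lists, among them genes with tissue-specific expression, were set against the 4.25% of all X genes and the 18.3% of all autosomal genes. A chosen region was found for 0 of 15 muscle genes, 0 of 22 neuronal genes, 0 of 33 chemoreceptor genes and 0 of 4 histone genes on X. On autosomes the shares were 15.4%, 12.9%, 1.35% and 26.5%. With 4.25% over all X genes, a count of 0 in lists this short does not set them apart from other X genes. Of 34 neuropeptide and insulin genes, ins-39 had one (2.94%, against 2.83% of those on autosomes). Of 23 nuclear hormone receptor genes, 3 had one (13.04%, against 4.47% of those on autosomes), namely nhr-35 (signal 126), nhr-1 (112) and nhr-48 (101.4). Of 13 intestine and yolk genes, pept-1, an intestinal peptide transporter gene, had a signal of 97.2, and it was found in replicate 2 alone (52.3). Of 17 signalling and developmental timing genes, lin-14, a heterochronic gene, had a signal of 96.3 (46.4 in replicate 1 and 45.7 in replicate 2). Of 22 homeobox genes, ceh-39 was the one with a region, and of 33 genes with collagen-type names it was dpy-23, which encodes a clathrin adaptor subunit and no collagen. For the intestine, signalling, homeobox and collagen-type lists, in that order, the X shares were 7.69%, 5.88%, 4.5% and 3.03%. On autosomes they were 14.3%, 20.4%, 10% and 6.21%.

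The replicates found the same X regions with a tilt toward replicate 1. Of the 244 X regions, 232 (95.1%) overlapped a region in both replicates' relaxed lists by at least 50% of the shorter region, against 98.3% of the autosomal regions, and the other 12 were found in 1 list. A peak of the authors' list filtered by irreproducible discovery rate (IDR) overlapped 69.3% of X regions and 77.6% of autosomal regions. Signals were higher in replicate 1 than in replicate 2 for 161 of the 232, with a median ratio of 1.21, whereas the median ratio over autosomal regions was 0.972. The ratio was above 1 in all 16 regions with the stretch, from 1.149 to 1.497, and likewise in all 20 of the strongest X regions, with or without the stretch, from 1.034 to 1.497. Choosing regions from replicate 2 alone gave 236 on X and from replicate 1 alone 299, out of 4166 and 4151 on all chromosomes. Those sets reached below a signal of 80. In the replicates' own lists, rank 2057 in replicate 2 had a signal of 79.7 and rank 2007 in replicate 1 had 79.89. Across the 232 regions the replicates' signals had a Spearman's rho of 0.64 and across 3860 autosomal regions 0.78, given as a description because the regions share libraries. The labels' sexes are pooled in each replicate and the worms' sex ratio was not analysed here.

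**Figure D5:**
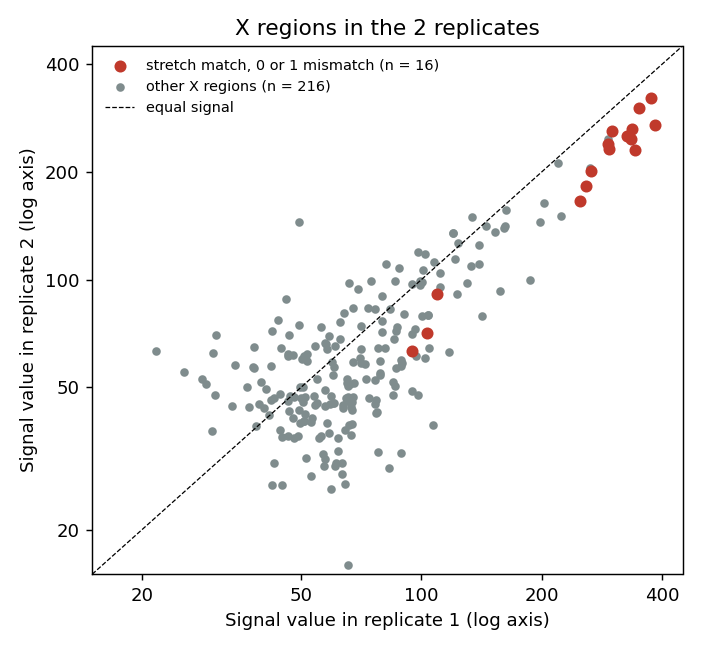
Signal in replicate 2 against signal in replicate 1 (log axes) for the 232 X regions found in both lists, with red points for the 16 regions that hold the stretch with 0 or 1 mismatch and grey points for the other 216. All 16 red points lie below the dashed line of equal signal, on the side of replicate 1.

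The signal minimum cuts a continuous range. Just inside it were regions at F09C8.2 (80.98), endu-2 (81.1) and sec-16A.2 (81.3), and just outside it were regions at ugt-50 (79.7), F22H10.3 (79.9) and F55A4.13 (79.9). The rule on tRNA genes left out 95 of the 339 X regions that passed the signal minimum, against between 30 and 42 on single autosomes. X holds 276 of the annotated tRNA genes and single autosomes between 57 and 78. Read depth is unknown, so a region not listed on X was not detected at this depth and is not shown to be unbound.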

How the data were processed

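LIN-54 binding was measured by anti-GFP ChIP-seq in 2 biological replicates of 1 group. The authors deposited 3 relaxed region lists (each replicate and both pooled) and a list of irreproducible discovery rate (IDR) peaks, on build ce11 per the labels. The deposited signal value ranks regions within a list, and the deposited −log10 q-value reached its maximum in 68.4% of the X regions and was not used for ranking. The deposited lists also give a summit offset. The sources used here name no aligner, caller or IDR threshold, and depth is unknown.

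Python 3.11.15 (pandas 2.3.3, numpy 2.4.6, scipy 1.17.1) was used to annotate regions from the Ensembl release 115 annotation and the reference genome, both WBcel235; figures used matplotlib 3.10.9. Wilson intervals and two-sided Fisher's exact tests, X against autosomes, cover counting error over regions alone, and p-values were adjusted over 13 shares (Benjamini-Hochberg, threshold 0.05). The test was tested on simulated data. Named genes were those nearest the 20 strongest X regions, up to 3 per gene list (all X genes of lists with up to 5), non-coding genes near summits and the regions beside the signal minimum. No protein-coding gene was found for 10 listed symbols. Regions and lists were chosen with earlier results of these data known. Per-sample columns not used numbered 0.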

Additional observations from a re-analysis of the deposited data

How the results depend on the processing

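Values are X minus autosomes in percentage points. The shares in promoter windows, in intergenic sequence and in windows of several genes kept their direction and passed the test in all 10 alternatives run for each. At a signal minimum of 160, which left 72 X regions, introns (2.93), CACGTG (3.61) and snoRNA or snRNA genes (-5.11) no longer passed, E2F sites (-11.4) did, and GAGAGAGA (0.0846) and miRNA genes (-0.527) changed sign. Between 80 and 160, CHR elements (-6.02), GCGCAGGG (0.581) and snoRNA or snRNA genes (-1.4) no longer passed, and coding exons (-1.84) and E2F sites (0.641) changed sign. With pooled regions chosen by overlap with an IDR peak in place of the signal minimum (190 on X, 3395 on autosomes), TGATAA (0.833) and miRNA genes (-0.383) changed sign. With regions near tRNA genes included, E2F sites (-6.45) passed, CACGTG (2.13) did not, and coding exons (-1.11) and TGATAA (0.392) changed sign. With 1 replicate left out, the chosen sets reached below a signal of 80 in the other replicate's list. In those sets the difference ran from -1.66 to 0.127 for coding exons, -0.959 to 2.55 for GAGAGAGA, -0.0699 to 2.58 for TGATAA, 0.268 to 2.48 for CACGTG and -0.331 to -0.029 for miRNA genes. With promoter windows of 500 bp upstream and 100 bp downstream, introns gave 3.46 and did not pass, and coding exons gave -1.29. GAGAGAGA was 0.575 and TGATAA 0.56 with a motif distance of 25 bp, and 2.45 and 0.579 with 100 bp. In promoter windows alone GAGAGAGA was 0.541 and CACGTG 1.87, which did not pass. Without stretch matches, an alternative chosen after seeing the data, E2F sites gave -5.79 and passed, and GAGAGAGA gave 0.0412. The smaller sets hold fewer regions, and other causes of these changes were not tested. Read depth is unknown and limits every share.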
